A study of Mus musculus with 16 samples.

Results

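The genes described here encode voltage-gated and other potassium channels, voltage-gated sodium channels and voltage-gated calcium channels, pore-forming and auxiliary subunits alike. Members were taken by symbol alone, as every gene whose name is Kcn followed by letters and a number, Scn followed by a number and a or b, or begins with Cacn. The rule took 131 of 41204 genes in the count table, namely 92 potassium, 14 sodium and 25 calcium channel genes, and 107 of them passed the filter on low counts. A further rule set which members are described, a mean of at least 1 CPM (the count of a gene per 1000000 counts of its library, the library size being scaled by TMM) in at least 1 tendon, and 79 met it (51 potassium, 10 sodium and 18 calcium channel genes). Kcnmb2 lay just inside this limit, with a highest tendon mean of 1.0 CPM in Achilles, and Kcnk10 just outside, with 0.795 CPM in Supraspinatus. A member that is high in only 1 tendon meets such a limit through that tendon, so the 79 genes are partly chosen for differing between tendons and do not stand for the whole family. The 52 genes below the limit included 28 that were tested, of which 14 differed over the 4 tendons, as did 64.9% of all tested genes.

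RNA came from tendons of C57BL/6J mice, an inbred laboratory strain, with no treatment or genetic change named in the labels. The groups were the Achilles tendon, the forepaw flexor tendon (Flexor), the patellar tendon and the tendon of the supraspinatus muscle, with 4 libraries each from mice numbered 1 to 4, and 16 in all. The design asked which genes differ between each pair of tendons. Age and sex, and how much adjoining muscle, nerve or sheath was taken with each tendon, were not given in the sources used here.

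Ion channels of these families open and close with membrane voltage, calcium, ATP, acid or stretch, and set the resting potential and the firing of excitable cells. Skeletal muscle fibres use a sodium channel to carry the action potential, a calcium channel in the transverse tubules as the voltage sensor for contraction, and inwardly rectifying, ATP-sensitive and voltage-gated potassium channels to repolarise. Nerve and its glia, smooth muscle and fibroblasts carry other members. Bulk tendon RNA mixes these cells, and for every gene below fewer cells of a type and less RNA per cell cannot be told apart.

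Total counts per library ran from 84414005 to 107805065 in Achilles, Flexor and Supraspinatus and from 34559686 to 63235636 in Patellar. Genes with rRNA-like sequence took 1.86% to 4.91% of the counts in the 12 other libraries and 13.2% to 42% in Patellar, with the highest share in Patellar 3, which also had the fewest genes detected (23499). The summed level of 30 skeletal muscle markers ran from 56016 to 118091 CPM in Achilles, 87193 to 133518 in Flexor, 879 to 12353 in Patellar and 199419.8 to 224373 in Supraspinatus, and 30 of the 30 differed over the 4 tendons. Patellar 2 held the lowest sum and Patellar 1 the highest of that tendon. The summed level of 15 Schwann cell and nerve markers was 898 to 6158 CPM in Achilles, 1948 to 5191 in Flexor, 524 to 808 in Patellar and 474 to 555 in Supraspinatus, with 15 of 15 different over the 4 tendons. Sums of 12 tendon fibroblast markers were 14098 to 38851, 28964 to 30469.6, 38597 to 71059.7 and 14849.5 to 43109 CPM in the same order. In neither the muscle nor the Schwann list was any marker at 0 in all 4 libraries of a tendon. What part these cells have in the channel results was not tested beyond the covariate fits given near the end.

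Over the 4 tendons 67 of the 79 genes differed (84.8%) in edgeR's quasi-likelihood test with Benjamini-Hochberg adjustment over all tested genes at 0.05. That test called 64.9% of all 23754 tested genes, and 75.7% of the 16447 that reached the same level of 1 CPM in a tendon. Kcnc2, Kcng1, Kcnab2, Kcnip3, Kcne3, Kcnh1, Kcnq1, Kcnk13, Cacnb4, Scn3a and Kcns3 were among the 12 that did not pass. By tendon mean, the highest level of the 79 genes fell in Achilles for 20, Flexor for 15, Patellar for 21 and Supraspinatus for 23. The lowest fell in Achilles for 4, Flexor for 14, Patellar for 37 and Supraspinatus for 24.

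Patellar tendon held lower channel RNA than Achilles and Flexor for many members. In Patellar minus Achilles 34 genes (43.0%) were lower and 8 (10.1%) higher (5 higher without Achilles 3), beside 21.1% lower and 17.4% higher among all tested genes and 25.3% and 20.6% among those at 1 CPM or more. In Patellar minus Flexor 36 (45.6%) were lower and 18 (22.8%) higher, where all tested genes gave 26.2% and 24.2% and those at 1 CPM or more 31.2% and 27.5%. The median log2 difference of the 79 genes was -1.09 in Patellar minus Achilles and -0.92 in Patellar minus Flexor, and that of all tested genes was -0.01 in each. In Supraspinatus minus Patellar these medians were 0.098 and -0.081. In both directions together, Patellar minus Achilles called 42 of the 79, beside 38.4% of all tested genes and 45.9% at 1 CPM or more, and Patellar minus Flexor called 54, beside 50.3% and 58.8%.

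Supraspinatus differed from Achilles and Flexor in both directions. In Supraspinatus minus Achilles 19 genes were higher and 24 lower (24.1% and 30.4%), beside 16.9% and 16.7% of all tested genes and 21.9% and 18.6% of those at 1 CPM or more. In Supraspinatus minus Flexor 19 were higher and 17 lower (24.1% and 21.5%), beside 14.7% and 12.4%, or 19.6% and 14.8% at 1 CPM or more. Flexor and Achilles differed least, with 7 higher and 14 lower (8.86% and 17.7%), beside 6.50% and 9.72%, or 8.35% and 12.3% at 1 CPM or more. Without the Patellar libraries in the fit this count of 21 became 34, with 13 higher and 21 lower. That fit called 55 in Supraspinatus minus Achilles and 54 in Supraspinatus minus Flexor. In Supraspinatus minus Patellar 27 genes were higher and 22 lower (34.2% and 27.8%), close to the shares of genes at 1 CPM or more (32.5% and 28.6%), where all tested genes gave 26.4% and 26.8%. In both directions together Supraspinatus minus Achilles called 43 (33.6% of all tested genes, 40.5% at 1 CPM or more), Supraspinatus minus Flexor 36 (27.1% and 34.4%) and Supraspinatus minus Patellar 49 (53.3% and 61.1%). Flexor minus Achilles called 16.2% and 20.7% of those genes. These comparisons share libraries, and each count is that of its own contrast.

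**Figure D1:**
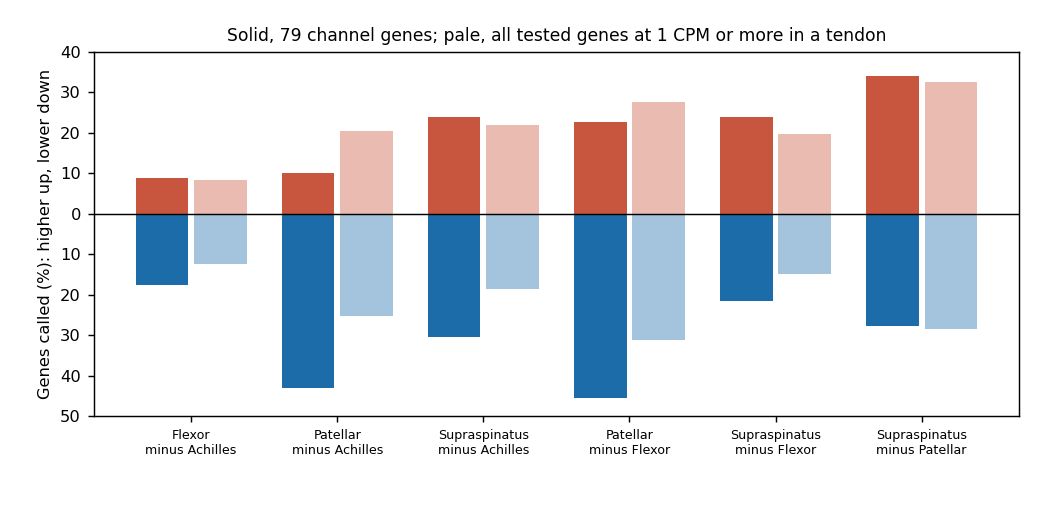
Share of genes (%) called higher (upward bars) and lower (downward bars) in each of the 6 pairs of tendons, in solid colour for the 79 channel genes and in pale colour for the 16447 tested genes at 1 CPM or more in a tendon. The lower share of channel genes is 43.0% in Patellar minus Achilles and 45.6% in Patellar minus Flexor, against 25.3% and 31.2%.

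**Figure D2:**
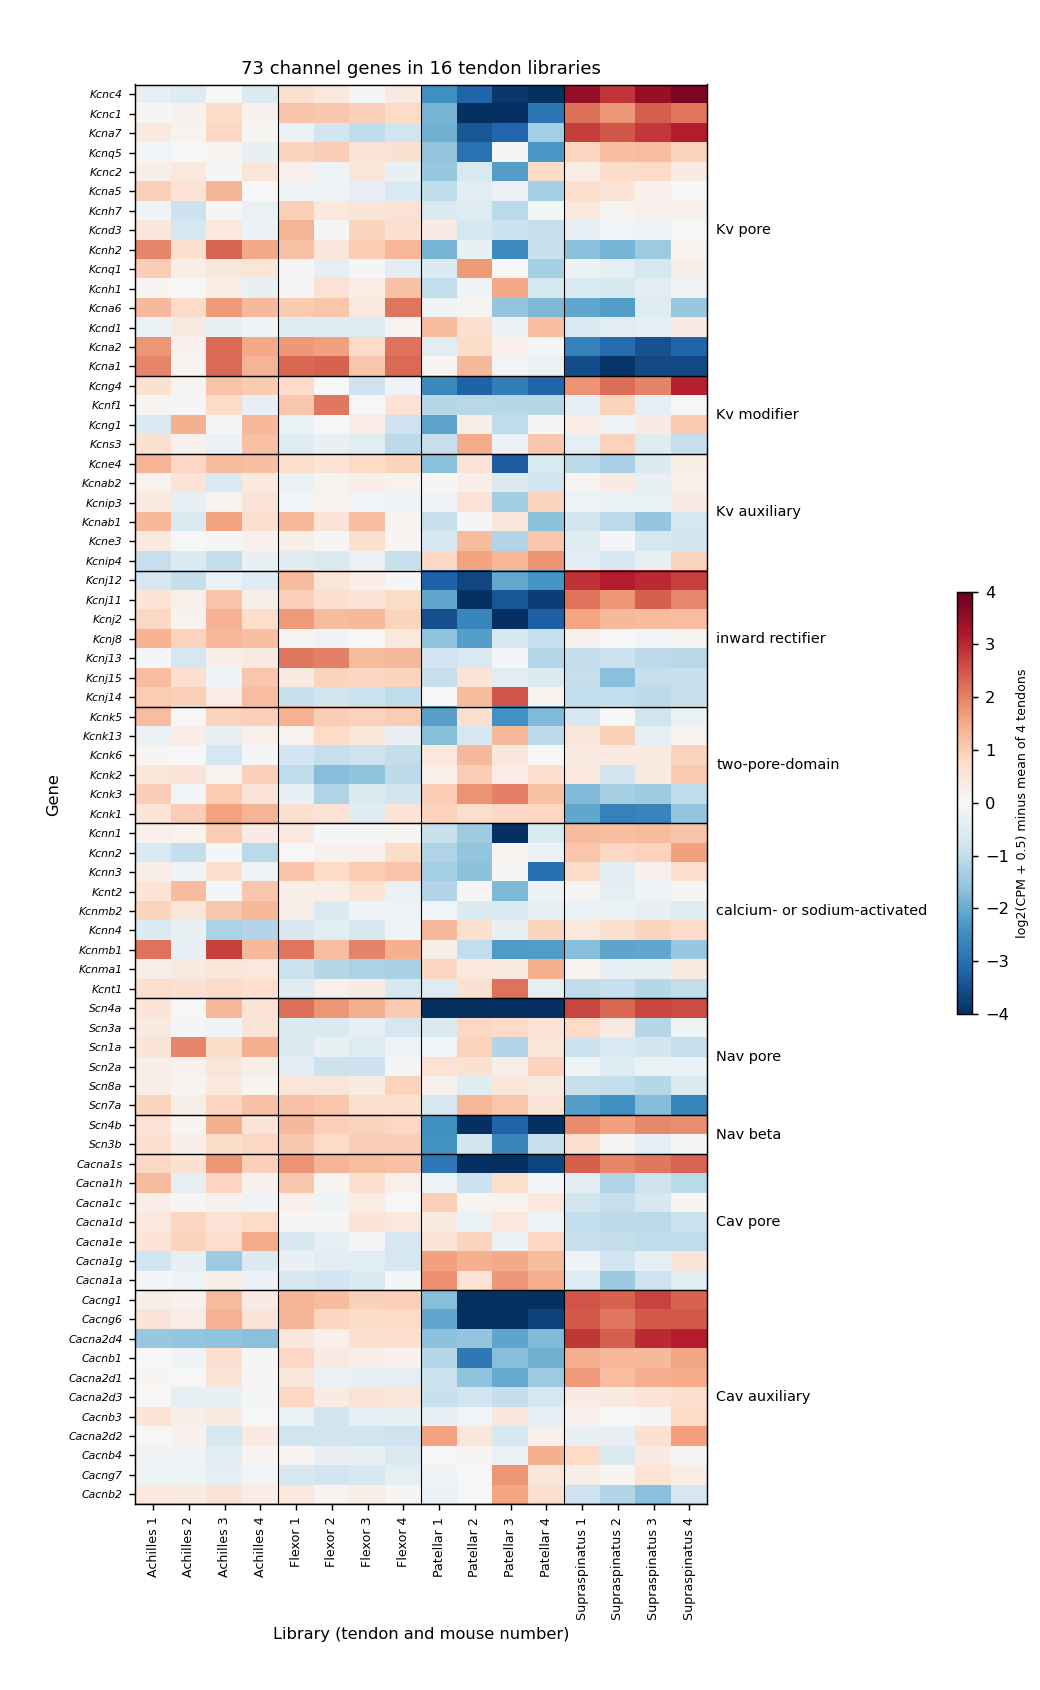
Level of 73 of the 79 channel genes in the 16 libraries, as log2(CPM + 0.5) minus the mean of the 4 tendon means on that scale, by channel class. Colours stop at 4 either way. Rows of Kcnc4, Kcnj12, Scn4a, Cacna1s, Cacng1 and Cacng6 are blue in the Patellar libraries and red in the Supraspinatus libraries, and rows of Kcna1, Kcna2 and Scn7a are blue in Supraspinatus.

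Called in 1 direction against each of the other 3 tendons, 23 genes were lower in Patellar, 11 higher and 11 lower in Supraspinatus, 5 higher in Patellar, 2 higher and 3 lower in Flexor and 2 higher in Achilles. The same rule took, of all tested genes, 14.2% as lower in Patellar, 7.06% as higher and 5.19% as lower in Supraspinatus, 10.5% as higher in Patellar, 1.70% as higher and 3.44% as lower in Flexor and 1.15% as higher in Achilles. Among genes at 1 CPM or more these shares were 17.5%, 9.72%, 6.44%, 12.2%, 2.19%, 4.77% and 1.35% in the same order. The 23 genes lower in Patellar included Kcnf1, Scn4a, Cacna1s, Kcng4, Kcnj11, Cacng6, Kcnj2, Scn4b, Cacng1, Kcnc1, Kcnc4, Kcnj12, Scn3b, Kcna7, Cacnb1, Kcnn1, Cacna2d3, Kcnn3, Kcnq5, Cacna2d1 and Kcnj8. Higher in Patellar were Kcnip4, Cacna1g, Cacna1a, Kcnd1 and Kcnk3. Those higher in Supraspinatus included Kcnc4, Cacna2d4, Kcna7, Kcnj12, Kcng4, Kcnj11, Cacna2d1, Cacnb1 and Scn4a, and lower there were Kcna1, Kcna2, Kcnt1, Scn7a, Cacna1e, Kcnk1, Scn8a, Cacna1d, Cacnb2, Kcnj15 and Cacna1h. Those higher in Flexor included Kcnj13, and Flexor was lower for Kcnk2, Kcnma1 and Kcnk6, and Achilles was higher for Kcnmb2 and Kcnj8.

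Some of these placings rest on a contrast that missed the threshold when 1 library was left out. The log2 differences that went furthest were, in Patellar minus Achilles, 0.73, adjusted p = 0.13, without Patellar 3, for Kcnk3, 0.81, adjusted p = 0.11, without Patellar 1, for Kcnd1 and -1.29, adjusted p = 0.11, without Achilles 3, for Kcnn3. In Patellar minus Flexor Kcnn1 went to -1.43, adjusted p = 0.062, without Patellar 2, and in Supraspinatus minus Patellar Kcnn3 went to 1.48, adjusted p = 0.052, without Patellar 2. In Flexor minus Achilles Kcnk6 went to -0.72, adjusted p = 0.12, without Achilles 1 and Kcnmb2 to -2.13, adjusted p = 0.11, without Achilles 4. In Supraspinatus minus Flexor Kcnj11 went to 1.27, adjusted p = 0.082, without Supraspinatus 3 and Scn4a to 0.76, adjusted p = 0.11, without Flexor 4, and in Supraspinatus minus Achilles Kcnj11 went to 1.43, adjusted p = 0.052, without Achilles 4 and Kcng4 to 1.28, adjusted p = 0.06, without Supraspinatus 4. Leaving out each library in turn left 20 to 24 genes lower in Patellar, 9 to 15 higher and 9 to 13 lower in Supraspinatus, and 3 to 5 higher in Patellar.

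For genes lower in Patellar than elsewhere, 3 promoters are shown, 2 with the E-box CAGCTG, a motif bound by muscle regulatory factors of the MyoD family, and 1 without. Each runs from 250 bases before to 50 after the start in RefSeq (GRCm38.p6), 5′ to 3′ on the gene's strand, with the motif in capitals. Cacna1s lies at chr1:136052561-136052860 on the plus strand, Kcnj2 at chr11:111065914-111066213 on the plus strand and Scn4a at chr11:106349341-106349640 on the minus strand.
Cacna1s promoter: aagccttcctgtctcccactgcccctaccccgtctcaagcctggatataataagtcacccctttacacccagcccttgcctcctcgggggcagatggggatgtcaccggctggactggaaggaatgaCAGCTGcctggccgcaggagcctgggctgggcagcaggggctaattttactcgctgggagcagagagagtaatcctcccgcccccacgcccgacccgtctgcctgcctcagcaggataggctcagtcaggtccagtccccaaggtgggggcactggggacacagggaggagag
Kcnj2 promoter: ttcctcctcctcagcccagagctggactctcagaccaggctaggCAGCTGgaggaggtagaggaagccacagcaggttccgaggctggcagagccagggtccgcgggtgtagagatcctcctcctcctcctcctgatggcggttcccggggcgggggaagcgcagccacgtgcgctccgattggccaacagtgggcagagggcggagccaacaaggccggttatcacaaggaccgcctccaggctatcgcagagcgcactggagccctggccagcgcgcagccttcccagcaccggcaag
Scn4a promoter: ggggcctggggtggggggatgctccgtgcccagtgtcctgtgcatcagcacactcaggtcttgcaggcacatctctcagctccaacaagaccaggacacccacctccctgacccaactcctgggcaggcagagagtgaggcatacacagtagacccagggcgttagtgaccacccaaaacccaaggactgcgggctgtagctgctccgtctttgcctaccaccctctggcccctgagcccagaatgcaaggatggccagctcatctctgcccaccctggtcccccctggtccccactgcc
RefSeq promoters matched 56 of the 79 genes, with 83 starts in all. CAGCTG, which reads the same on both strands, was in 24 of the 83 windows (28.9%) and in 16.3% of 32851 windows of the same length in the whole table. Among windows of the genes lower in Patellar it was in 6 of 21 (28.6%), and a MEF2 motif, searched on both strands, was in 0 of the 83 windows and in 0.557% of all windows. A match describes the letters only, and its absence says nothing of the factor.

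Voltage-gated calcium channels admit calcium on depolarisation. Of the 7 pore subunits described, Cacna1s was lower in Patellar than in the other tendons, while Cacna1g and Cacna1a were higher there. In Supraspinatus 6 of 7 were lower than in Patellar (85.7%), beside 28.6% of genes at 1 CPM or more. Cacna1s (chr1:136052750-136119822, GRCm38, as all positions below) encodes the pore and voltage sensor of the muscle L-type channel. It was at 276, 237, 519.5 and 300.2 CPM in Achilles, 541, 395, 365 and 347 in Flexor, 20.7, 1.0, 3.33 and 11.7 in Patellar and 802, 598, 671 and 767 in Supraspinatus. The Patellar libraries did not overlap any other, and the Supraspinatus libraries lay above the rest. Log2 differences, given with their SE here and below, were -5.18 ± 0.67, adjusted p = 2.8e-05, against Achilles and 6.27 ± 0.70, adjusted p = 2.5e-06, for Supraspinatus against Patellar.

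Cacna1g (chr11:94408391-94474198) encodes a T-type pore that opens at low voltage. Its level was 8.5, 12.1, 5.18 and 10.1 CPM in Achilles, 12.3, 10.9, 11.1 and 9.11 in Flexor, 48, 41.3, 44.2 and 37 in Patellar and 13.6, 8.5, 12.1 and 21.9 in Supraspinatus. All 4 Patellar libraries lay above the other 12, and the other tendons overlapped. The differences were 2.25 ± 0.27, adjusted p = 1.5e-05, against Achilles, 1.97 ± 0.27, adjusted p = 1.9e-05, against Flexor and -1.6 ± 0.26, adjusted p = 9.9e-05, for Supraspinatus minus Patellar. Cacna1a (chr8:84388440-84640246), the P/Q-type pore of nerve endings, stood at 6.29, 5.86, 7.78 and 5.5 CPM in Achilles, 4.06, 3.66, 4.24 and 6.41 in Flexor, 24.9, 9.88, 23.1 and 18.9 in Patellar and 4.42, 2.04, 3.46 and 4.76 in Supraspinatus. Patellar again lay above every other library. Sums of 10 neuron markers were lowest in Patellar, at 13.2 to 28.1 CPM beside 36.7 or more elsewhere, and their part was not tested. The differences of Cacna1a were 1.59 ± 0.30, adjusted p = 0.00063, against Achilles, 2.06 ± 0.30, adjusted p = 4.1e-05, against Flexor and -2.38 ± 0.31, adjusted p = 9.3e-06, for Supraspinatus minus Patellar.

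Cacna1c (chr6:118587240-119196418), the L-type pore of heart and smooth muscle, varied less. Its values were 8.36, 7.08, 7.88 and 6.15 CPM in Achilles, 8.01, 6.09, 8.59 and 6.93 in Flexor, 13.7, 7.5, 7.6 and 9.45 in Patellar and 3.96, 3.39, 4.24 and 7.25 in Supraspinatus. Only Supraspinatus minus Patellar passed, with -1.02 ± 0.25, adjusted p = 0.0026, and Supraspinatus overlapped Achilles and Flexor. The remaining pores were low, with tendon means in the order Achilles, Flexor, Patellar and Supraspinatus of 3.56, 3.43, 2.15 and 0.953 CPM for Cacna1h, 1.83, 1.28, 1.1 and 0.243 for Cacna1d and 1.51, 0.281, 1.05 and 0.0319 for Cacna1e. Each of these 3 was lower in Supraspinatus than in every other tendon. Counts of Cacna1d and Cacna1h are uncertain where an exon overlaps Chdh and Tpsg1 on the other strand, and the strand setting was not given in the sources used here.

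Auxiliary calcium channel subunits bind the pore and set its gating and its delivery to the membrane. Of 11 described, 6 were higher and 1 lower (54.5% and 9.09%) in Supraspinatus than in each of the other tendons taken singly. Genes at 1 CPM or more gave 21.9% and 18.6% against Achilles, 19.6% and 14.8% against Flexor and 32.5% and 28.6% against Patellar. In Patellar 5 were lower and 1 higher than in Achilles (45.5% and 9.09%), beside 25.3% and 20.6% of genes at 1 CPM or more. Cacng1 (chr11:107703218-107716522), the gamma subunit of the muscle channel, was at 78.9, 75, 163 and 84 CPM in Achilles, 173, 160.4, 131 and 131 in Flexor, 20.5, 0.898, 1.39 and 3.71 in Patellar and 385, 347, 441 and 348 in Supraspinatus. Patellar 1 stood far above the other Patellar libraries, and Patellar as a group lay below every other library. Its differences were -3.92 ± 0.72, adjusted p = 0.00052, for Patellar minus Achilles and 5.84 ± 0.78, adjusted p = 1.4e-05, for Supraspinatus minus Patellar.

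Cacng6 (chr7:3424195-3435667), a close relative of Cacng1, was at 53.7, 46, 101 and 53.5 CPM in Achilles, 98.5, 69, 62.6 and 66.2 in Flexor, 8.48, 0.599, 0.66 and 2.45 in Patellar and 210.2, 163, 211 and 209.9 in Supraspinatus. The order of the tendons was that of Cacng1, and Patellar did not overlap the rest, with -4.38 ± 0.63, adjusted p = 7.1e-05, against Achilles and -4.6 ± 0.64, adjusted p = 2.4e-05, against Flexor. Cacnb1 (chr11:98001508-98023034), the beta subunit of skeletal muscle, was at 58.2, 52.3, 91.1 and 55.1 CPM in Achilles, 104, 75.2, 70.5 and 66.1 in Flexor, 26.5, 7.6, 17.8 and 15.1 in Patellar and 159.9, 147, 144 and 177 in Supraspinatus. The Patellar libraries were the lowest and the Supraspinatus libraries the highest, without overlap, and the differences were 1.29 ± 0.28, adjusted p = 0.0023, for Supraspinatus minus Achilles and 3.23 ± 0.30, adjusted p = 4.3e-07, for Supraspinatus minus Patellar.

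Cacna2d1 (chr5:15934691-16374511) encodes the widely expressed alpha2delta subunit that carries the channel to the membrane. It was at 92, 87.3, 124 and 90.7 CPM in Achilles, 119.7, 72.9, 71.5 and 66.2 in Flexor, 47.6, 28.6, 21.1 and 31.4 in Patellar and 285, 205, 239 and 248 in Supraspinatus. Achilles and Flexor overlapped, Patellar lay below both and Supraspinatus above, with -1.61 ± 0.23, adjusted p = 7.6e-05, for Patellar minus Achilles and 1.56 ± 0.23, adjusted p = 0.00011, for Supraspinatus minus Flexor. Cacna2d4 (chr6:119236526-119352407), another alpha2delta gene known from the retina, separated the forelimb from the hindlimb tendons. Its level was 0.25, 0.238, 0.21 and 0.173 CPM in Achilles, 2.45, 1.99, 2.96 and 2.96 in Flexor, 0.184, 0.221, 0 and 0.135 in Patellar and 15.2, 10.8, 16.7 and 18.6 in Supraspinatus. Supraspinatus lay above Flexor and Flexor above the hindlimb tendons, with no overlap, while Achilles and Patellar overlapped. The differences were 3.57 ± 0.36, adjusted p = 1.3e-05, for Flexor minus Achilles, 2.56 ± 0.33, adjusted p = 2.5e-05, for Supraspinatus minus Flexor and -4.1 ± 0.40, adjusted p = 9.4e-07, for Patellar minus Flexor.

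Among the other auxiliary calcium channel genes, Cacnb2 had tendon means of 8.65, 7.5, 10.5 and 2.87 CPM in the same tendon order, Cacnb3 7.66, 4.47, 5.85 and 7.34, Cacnb4 1.98, 1.79, 3.32 and 2.75 and Cacna2d3 0.665, 1.42, 0.231 and 1.32. Cacnb2, a beta subunit of heart, was the member lower in Supraspinatus than in each other tendon. Cacna2d2 and Cacng7 stayed under 2 CPM in every tendon mean.

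**Figure D3:**
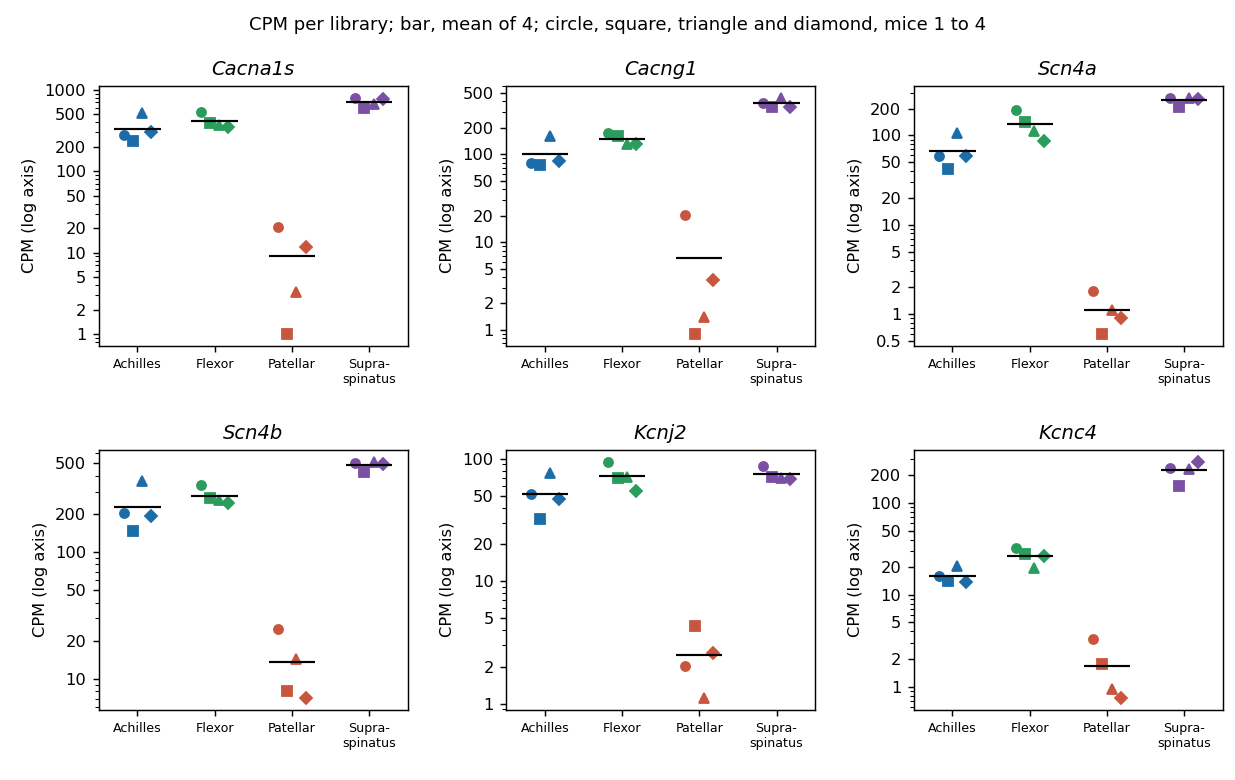
CPM per library on log axes for Cacna1s, Cacng1, Scn4a, Scn4b, Kcnj2 and Kcnc4, with 4 libraries per tendon and a bar at their mean. In each panel the 4 Patellar libraries lie below the other 12, and Kcnc4 reaches 153 to 282 CPM in Supraspinatus against 32.5 or less elsewhere.

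Among the sodium channel pores, Scn4a (chr11:106318592-106353288) carries the action potential of skeletal muscle. Its level was 59.2, 42.1, 106 and 59.7 CPM in Achilles, 193, 141, 112 and 85.8 in Flexor, 1.81, 0.599, 1.11 and 0.915 in Patellar and 265, 206, 266 and 256 in Supraspinatus. No Patellar library overlapped another tendon, Supraspinatus lay above the rest, and Flexor and Achilles overlapped. The differences were -5.93 ± 0.39, adjusted p = 2.2e-07, for Patellar minus Achilles, -6.93 ± 0.40, adjusted p = 1.6e-08, for Patellar minus Flexor and 1.9 ± 0.31, adjusted p = 0.00027, for Supraspinatus minus Achilles.

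Scn7a (chr2:66673425-66784914) encodes a sodium channel relative known for sensing sodium in glia. It was at 48.9, 31.2, 47.7 and 60.4 CPM in Achilles, 60.0, 57.6, 41.7 and 42.3 in Flexor, 16.3, 67.1, 56.9 and 37.9 in Patellar and 5.31, 4.4, 7.49 and 3.78 in Supraspinatus. The Supraspinatus libraries lay below the other 12, which overlapped one another, with -3.17 ± 0.36, adjusted p = 1.1e-05, against Achilles, -3.26 ± 0.36, adjusted p = 5.7e-06, against Flexor and -3.09 ± 0.36, adjusted p = 3.7e-06, against Patellar. Scn2a (chr2:65620771-65767447), a pore of the brain, was at 5.25, 5.03, 6.28 and 5.25 CPM in Achilles, 3.1, 2.17, 2.19 and 4.09 in Flexor, 6.82, 6.9, 5.24 and 8.64 in Patellar and 3.85, 2.88, 3.53 and 3.55 in Supraspinatus. Patellar lay above Flexor and Supraspinatus but overlapped Achilles, with 1.26 ± 0.22, adjusted p = 0.00023, for Patellar minus Flexor and -1.0 ± 0.22, adjusted p = 0.0014, for Supraspinatus minus Patellar. Scn3a (chr2:65457118-65567627), another neuronal pore, was at 1.59, 1.05, 0.999 and 1.85 CPM in Achilles, 0.60, 0.60, 0.803 and 0.538 in Flexor, 0.62, 2.42, 2.29 and 1.96 in Patellar and 2.36, 1.62, 0.244 and 0.968 in Supraspinatus. These tendons overlapped apart from Achilles and Flexor, and the gene did not pass over the 4 tendons (adjusted p = 0.101).

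Over the 7 sodium channel pores, 1 was lower and 0 higher in Patellar than in Achilles, beside 25.3% and 20.6% of genes at 1 CPM or more. In Supraspinatus 4 were lower and 1 higher than in Achilles (57.1% and 14.3%), beside 18.6% and 21.9%. Scn1a, a neuronal pore, had tendon means of 2.4, 0.412, 0.883 and 0.193 CPM in the usual order, and Scn8a, the pore of the nodes of Ranvier, 0.814, 1.16, 0.775 and 0.112. Both were lower in Supraspinatus than in Achilles and Patellar. Scn3a, Scn2a, Scn1a, Scn9a and Scn7a are neighbours on chromosome 2 between 65457118 and 66784914, and their highest tendon means ranged from 0.117 CPM for Scn9a to 50.4 for Scn7a.

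Sodium channel beta subunits, which modulate gating and adhere to other cells, included Scn4b and Scn3b, each lower in Patellar than in each other tendon. Scn4b (chr9:45138395-45154152) was at 202, 147, 363 and 194 CPM in Achilles, 335, 268, 258 and 242 in Flexor, 24.6, 7.97, 14.4 and 7.08 in Patellar and 503, 425, 516 and 494 in Supraspinatus. Patellar lay below and Supraspinatus above all the others, and Achilles overlapped Flexor, with -4.07 ± 0.37, adjusted p = 1.9e-06, for Patellar minus Achilles and 5.16 ± 0.39, adjusted p = 6.5e-08, for Supraspinatus minus Patellar.

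Scn3b (chr9:40269217-40291618) was low, at 4.33, 3.17, 4.51 and 4.88 CPM in Achilles, 5.85, 4.76, 5.46 and 5.45 in Flexor, 0.0689, 1.28, 0 and 1.1 in Patellar and 4.25, 2.61, 1.78 and 2.63 in Supraspinatus. Patellar 1 and Patellar 3 had almost none, and no Patellar library reached the lowest library of another tendon. The differences were -2.72 ± 0.68, adjusted p = 0.0049, for Patellar minus Achilles, -3.07 ± 0.68, adjusted p = 0.0015, for Patellar minus Flexor and 2.13 ± 0.67, adjusted p = 0.013, for Supraspinatus minus Patellar.

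Voltage-gated potassium pores open on depolarisation and repolarise the cell. Of 19 described, 4 were higher and 4 lower in Supraspinatus than in Achilles, with 11 not called. These shares of 21.1% each way were close to those of genes at 1 CPM or more (21.9% and 18.6%). In Patellar 10 were lower and 1 higher than in Achilles (52.6% and 5.26%, beside 25.3% and 20.6%). Against Flexor 12 were lower and 2 higher in Patellar (63.2% and 10.5%, beside 31.2% and 27.5%). Kcnc4 and Kcna7 were higher in Supraspinatus than elsewhere. Kcnc4 (chr3:107438303-107459552), a fast-inactivating pore of the Kcnc family, was at 16, 14.2, 20.7 and 13.7 CPM in Achilles, 32.5, 27.8, 19.7 and 26.4 in Flexor, 3.31, 1.77, 0.937 and 0.754 in Patellar and 242, 153, 232 and 282 in Supraspinatus. Supraspinatus lay above and Patellar below all other libraries, and the differences were 3.82 ± 0.35, adjusted p = 1.7e-06, for Supraspinatus minus Achilles, 3.09 ± 0.34, adjusted p = 4.2e-06, for Supraspinatus minus Flexor and -3.22 ± 0.35, adjusted p = 7.6e-06, for Patellar minus Achilles.

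Kcnc1 (chr7:46396497-46438704), a fast delayed rectifier, was at 16.5, 17.9, 27 and 18.1 CPM in Achilles, 35.5, 34.2, 31.2 and 28.2 in Flexor, 4.0, 0.299, 0.208 and 1.70 in Patellar and 75.9, 55.7, 87.7 and 72.4 in Supraspinatus. The 4 tendons did not overlap, in the order Patellar, Achilles, Flexor and Supraspinatus, with -3.68 ± 0.57, adjusted p = 0.00014, for Patellar minus Achilles and 1.88 ± 0.51, adjusted p = 0.0098, for Supraspinatus minus Achilles. Kcna7 (chr7:45405653-45409763), a shaker-type pore found in skeletal muscle, was at 8.63, 7.08, 11.9 and 6.96 CPM in Achilles, 5.28, 3.71, 2.95 and 3.51 in Flexor, 1.33, 0.143, 0.278 and 2.18 in Patellar and 46.4, 38.2, 48.6 and 61.2 in Supraspinatus. Supraspinatus was highest, Achilles next, Flexor below it and Patellar lowest, with no overlap. The differences were 2.49 ± 0.49, adjusted p = 0.0011, for Supraspinatus minus Achilles, 3.65 ± 0.51, adjusted p = 6e-05, for Supraspinatus minus Flexor and -3.17 ± 0.54, adjusted p = 0.00027, for Patellar minus Achilles.

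Kcna1 and Kcna2, which form the channels beside the nodes of Ranvier of myelinated axons, went the other way. Kcna1 (chr6:126640397-126646384) was at 52.8, 14.3, 65.5 and 34.4 CPM in Achilles, 67.2, 69.1, 28.1 and 65 in Flexor, 14, 32.8, 12.3 and 10.9 in Patellar and 0.66, 0.406, 0.611 and 0.626 in Supraspinatus. The 4 Supraspinatus libraries were under 1 CPM and lay far below the rest, with -6.17 ± 0.54, adjusted p = 1.3e-06, against Achilles, -6.63 ± 0.55, adjusted p = 2.8e-07, against Flexor and -4.92 ± 0.51, adjusted p = 1.2e-06, against Patellar. Kcna2 (chr3:107101146-107115005) was at 46.2, 15.1, 65.8 and 38.7 CPM in Achilles, 45, 42, 23 and 61.1 in Flexor, 9.51, 22.2, 15.2 and 12.6 in Patellar and 1.61, 1.11, 0.733 and 1.0 in Supraspinatus. Supraspinatus was again apart and low, with -5.21 ± 0.46, adjusted p = 1.6e-06, against Achilles and -3.74 ± 0.44, adjusted p = 3.7e-06, against Patellar, while Patellar overlapped Achilles. Schwann marker sums ran from 524 to 808 CPM in Patellar and from 474 to 555 in Supraspinatus, and 11 of the 15 markers were lower and 1 higher in Supraspinatus than in Patellar. Between those tendons the mean of Kcna1 was 17.5 ± 10.3 (SD, n = 4) against 0.576 ± 0.115 CPM and that of Kcna2 14.9 ± 5.43 against 1.11 ± 0.368. Achilles 2, which had the lowest Schwann sum of its tendon, also had its lowest Kcna1 and Kcna2, and so did Flexor 3 in Flexor. In Patellar the order differed. Patellar 1 held the highest Schwann sum there and the lowest Kcna2, and Patellar 2 the highest Kcna1 and Kcna2. Sums of 10 neuron markers had another order, at 36.7 to 44.6 CPM in Achilles, 37.8 to 59.3 in Flexor, 13.2 to 28.1 in Patellar and 66.6 to 78.1 in Supraspinatus. Of these markers 4 were higher and 2 lower in Supraspinatus than in Patellar. The part of nerve in the Kcna1 and Kcna2 results was not tested beyond the fit with Schwann markers given near the end.

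Kcna5, Kcna1 and Kcna6 are neighbours on chromosome 6, between 126532551 and 126740674. Kcna5, a pore of heart and vessel, had tendon means of 14, 6.23, 4.68 and 10.3 CPM in the usual order, and Kcna6, a neuronal pore, 14.3, 14.5, 3.36 and 1.73. Kcna6 was lower in Supraspinatus than in Achilles and Flexor, as Kcna1 was, whereas Kcna5 did not pass between Supraspinatus and Achilles or Flexor.

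Kcnd1 (chrX:7822289-7838280), an A-type pore, was at 1.94, 3.24, 1.85 and 2.09 CPM in Achilles, 1.59, 1.56, 1.55 and 2.66 in Flexor, 6.48, 4.1, 1.98 and 6.16 in Patellar and 1.41, 1.62, 1.71 and 3.17 in Supraspinatus. Patellar 3 overlapped the other tendons, and the differences were 1.35 ± 0.37, adjusted p = 0.0061, for Patellar minus Flexor and -1.25 ± 0.37, adjusted p = 0.0093, for Supraspinatus minus Patellar. Kcnh2, the pore of the rapid delayed rectifier of heart, had tendon means of 11.4, 6.75, 1.09 and 1.3 CPM, and was lower in Patellar and in Supraspinatus than in Achilles and Flexor. Kcnq5 had means of 8.3, 15.2, 3.24 and 18.8. Kcnh1, Kcnh7, Kcnd3, Kcnq1 and Kcnc2 had tendon means under 3 CPM, and Kcnq1 overlaps the antisense RNA Kcnq1ot1, so its reads cannot be told apart from it without strand.

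Modifier subunits are silent alone and change the gating of other pores. Kcng4 (chr8:119623854-119635680) was at 6.99, 4.79, 10.2 and 9.62 CPM in Achilles, 7.75, 4.31, 2.25 and 3.9 in Flexor, 0.322, 0.013, 0.208 and 0.0269 in Patellar and 16.3, 22.4, 18.7 and 40.3 in Supraspinatus. Patellar lay below the other libraries and Supraspinatus above them, with -5.94 ± 0.65, adjusted p = 8e-06, for Patellar minus Achilles, 2.42 ± 0.48, adjusted p = 0.0013, for Supraspinatus minus Flexor and 7.57 ± 0.68, adjusted p = 2.8e-07, for Supraspinatus minus Patellar. Kcnf1 (chr12:17172100-17176888) was at 0.71, 0.556, 1.43 and 0.392 CPM in Achilles, 1.85, 4.29, 0.633 and 1.17 in Flexor, 0, 0.013, 0 and 0 in Patellar and 0.389, 1.56, 0.379 and 0.626 in Supraspinatus. A single count was found in the 4 Patellar libraries together, against 31 to 429 counts in each of the other 12, and Patellar was called lower in all 3 contrasts. Kcng1 (chr2:168260117-168281736) was at 1.0, 5.57, 1.70 and 5.13 CPM in Achilles, 1.4, 1.8, 2.3 and 0.784 in Flexor, 0.023, 2.2, 0.625 and 1.86 in Patellar and 2.28, 1.57, 2.32 and 4.14 in Supraspinatus, and Kcns3 (chr12:11090202-11151056) at 7.0, 4.96, 3.69 and 10.4 CPM in Achilles, 2.94, 3.49, 3.1 and 1.86 in Flexor, 2.09, 13.2, 3.61 and 9.8 in Patellar and 3.2, 8.84, 3.02 and 2.06 in Supraspinatus. The tendons overlapped for Kcng1, Kcns3 overlapped in each pair but Flexor and Achilles, and neither passed over the 4 tendons.

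Of 6 auxiliary potassium channel genes described, 3 differed over the 4 tendons. The same test called 75.7% of genes at 1 CPM or more and 64.9% of all tested genes. Kcnip4 (chr5:48389502-49524907), a calcium-binding partner of Kcnd pores, was at 0.51, 0.824, 0.479 and 1.05 CPM in Achilles, 0.88, 0.80, 1.1 and 0.52 in Flexor, 2.92, 5.31, 4.37 and 6.24 in Patellar and 0.909, 0.707, 1.0 and 3.03 in Supraspinatus. Patellar lay above Achilles and Flexor, and Supraspinatus 4 reached into its range, with 2.72 ± 0.46, adjusted p = 0.00027, for Patellar minus Achilles, 2.51 ± 0.45, adjusted p = 0.00026, for Patellar minus Flexor and -1.74 ± 0.44, adjusted p = 0.0035, for Supraspinatus minus Patellar. An exon of Kcnip4 overlaps 5730480H06Rik on the other strand by 168 bases, and that gene was at 8.08 to 11.1 CPM in the tendon means, highest in Flexor, so counts of Kcnip4 are uncertain.

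Kcnab1 (chr3:65109384-65378223), a beta subunit that joins Kcna pores, was at 17.5, 4.3, 21.1 and 10.7 CPM in Achilles, 17.4, 9.75, 16.1 and 7.23 in Flexor, 3.33, 6.29, 9.17 and 1.78 in Patellar and 3.59, 2.96, 1.95 and 3.89 in Supraspinatus. Supraspinatus lay below Achilles and Flexor and overlapped Patellar, with -2.11 ± 0.50, adjusted p = 0.0044, against Achilles and -2.02 ± 0.50, adjusted p = 0.0066, against Flexor. Kcne4 (chr1:78816758-78820028), a small single-pass subunit, was at 19.6, 13.4, 18 and 17.4 CPM in Achilles, 12.2, 10.9, 13 and 13.9 in Flexor, 1.95, 11.1, 0.278 and 4.6 in Patellar and 3.17, 2.68, 4.75 and 9.12 in Supraspinatus. Achilles lay above Patellar and Supraspinatus, but both calls were lost when a library was left out, the first at -1.69, adjusted p = 0.055, without Patellar 1, and the second at -1.59, adjusted p = 0.099, without Supraspinatus 2. Kcnab2 (chr4:152390742-152477871), the other abundant beta subunit, was at 6.37, 8.61, 3.54 and 7.58 CPM in Achilles, 4.67, 6.15, 7.03 and 6.39 in Flexor, 5.83, 6.87, 3.65 and 3.15 in Patellar and 6.21, 7.28, 4.46 and 6.57 in Supraspinatus. All 4 tendons overlapped and no contrast passed. Kcnip3 and Kcne3 had tendon means under 1.3 CPM.

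Inward rectifiers, which hold the resting potential, were lower in Patellar than in Achilles for 5 of 7 and than in Flexor for 6 of 7, where genes at 1 CPM or more gave 25.3% and 31.2%. Kcnj2 (chr11:111066164-111076821), the classical inward rectifier of muscle, was at 51.6, 32, 76.1 and 47.2 CPM in Achilles, 94.9, 70.3, 71.7 and 54.5 in Flexor, 2.04, 4.28, 1.11 and 2.58 in Patellar and 88, 71.6, 69.8 and 69 in Supraspinatus. The Patellar libraries were the 4 lowest and the other tendons overlapped, with -4.33 ± 0.35, adjusted p = 6.8e-07, for Patellar minus Achilles, -4.82 ± 0.35, adjusted p = 9e-08, for Patellar minus Flexor and 4.86 ± 0.36, adjusted p = 4.3e-08, for Supraspinatus minus Patellar. Kcnj12 (chr11:61022564-61071131), its close relative, was at 5.3, 4.32, 7.14 and 6.04 CPM in Achilles, 21.5, 12.4, 10.6 and 8.24 in Flexor, 0.482, 0.234, 1.74 and 1.29 in Patellar and 68.7, 81.5, 73.2 and 61.1 in Supraspinatus. Supraspinatus lay above all other libraries, unlike Kcnj2, with 3.64 ± 0.42, adjusted p = 1.2e-05, against Achilles and 2.43 ± 0.40, adjusted p = 0.00025, against Flexor. Patellar was lowest, with -2.72 ± 0.45, adjusted p = 0.00022, against Achilles.

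ATP-sensitive potassium channels pair the pores Kcnj8 or Kcnj11 with the receptor subunits Abcc8 or Abcc9. Kcnj11 (chr7:46093953-46100764), the pore of muscle and of insulin-secreting cells, was at 14.7, 11.6, 22.4 and 11.8 CPM in Achilles, 19.6, 16, 14.8 and 17 in Flexor, 2.0, 0.143, 0.486 and 0.269 in Patellar and 46.6, 35.3, 54.8 and 39.5 in Supraspinatus. Patellar was lowest and Supraspinatus highest, and Achilles and Flexor overlapped, with -4.41 ± 0.54, adjusted p = 1.9e-05, for Patellar minus Achilles and 5.95 ± 0.57, adjusted p = 5.5e-07, for Supraspinatus minus Patellar. Kcnj8 (chr6:142564837-142571614), the pore of vessels and pericytes, was at 44.3, 32.3, 42.5 and 38.7 CPM in Achilles, 17.2, 15.2, 16.5 and 22.5 in Flexor, 5.17, 3.27, 10.6 and 8.58 in Patellar and 18.8, 16.9, 15.6 and 18.1 in Supraspinatus. Here Achilles lay above the rest and Patellar below, while Flexor and Supraspinatus overlapped, with -1.14 ± 0.26, adjusted p = 0.0068, for Flexor minus Achilles, -1.19 ± 0.26, adjusted p = 0.0024, for Supraspinatus minus Achilles and -1.39 ± 0.26, adjusted p = 0.00042, for Patellar minus Flexor. Abcc9, the partner subunit of muscle and vessel, was at 111, 66.9, 139 and 93.5 CPM in Achilles, 183, 127, 126 and 101 in Flexor, 13.6, 15.7, 18.6 and 11.2 in Patellar and 259.9, 192, 253 and 211 in Supraspinatus, in the tendon order of Kcnj11 and not of Kcnj8. Sums of 13 pericyte and smooth muscle markers were 1228 to 4539.8 CPM in Achilles, 2220.2 to 3931 in Flexor, 1083 to 1513 in Patellar and 631 to 1022 in Supraspinatus, and 11 of the 13 differed over the 4 tendons. Their part in Kcnj8 was not tested.

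Kcnj13 (chr1:87386363-87394729), a weak rectifier of epithelia, was at 0.67, 0.248, 0.969 and 1.08 CPM in Achilles, 4.74, 4.44, 2.45 and 2.49 in Flexor, 0.207, 0.299, 0.694 and 0.0538 in Patellar and 0.13, 0.17, 0.0855 and 0.0683 in Supraspinatus. The Flexor libraries lay above the other 12, with 2.25 ± 0.53, adjusted p = 0.0087, for Flexor minus Achilles and -3.53 ± 0.59, adjusted p = 0.00013, for Patellar minus Flexor. The summed level of 10 epidermis markers was 127 to 175 CPM in Flexor and 23.8 to 50.4 in the other 12 libraries, with 2 markers higher and 0 lower in Flexor minus Achilles and Krt5 at 0 in Supraspinatus, and their part in the Kcnj13 result was not tested. Kcnj13 lies within Gigyf2 on the other strand, and their exons overlap by 355 bases. Gigyf2 was at 57.8, 53.9, 71.6 and 56.7 CPM in Achilles, Flexor, Patellar and Supraspinatus, so its order was not that of Kcnj13, but counts of the smaller gene remain uncertain without strand. Kcnj14 and Kcnj15 had tendon means of 1.45, 0.0598, 2.15 and 0.0233 and 4.18, 4.09, 1.79 and 0.786 CPM in the usual order, and both were lower in Supraspinatus than in Patellar.

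Potassium channels with 2 pore domains carry background current, and the 4 named here were low in Flexor or in Supraspinatus. Kcnk2 (chr1:189207930-189402273), which opens with stretch, was at 6.0, 6.16, 4.64 and 8.37 CPM in Achilles, 1.76, 0.92, 1.03 and 1.72 in Flexor, 4.82, 8.71, 5.14 and 6.75 in Patellar and 5.7, 2.23, 5.62 and 9.11 in Supraspinatus. The Flexor libraries lay below the other 12, with -2.21 ± 0.37, adjusted p = 0.00082, for Flexor minus Achilles, 2.23 ± 0.37, adjusted p = 0.00013, for Patellar minus Flexor and 2.06 ± 0.37, adjusted p = 0.00053, for Supraspinatus minus Flexor. Kcnk6 (chr7:29221926-29232515) was at 7.17, 6.59, 3.98 and 6.26 CPM in Achilles, 3.75, 3.33, 3.57 and 3.23 in Flexor, 9.23, 17.3, 9.44 and 6.65 in Patellar and 8.75, 8.64, 8.86 and 12.7 in Supraspinatus. Flexor was again lowest, though close to Achilles 3, with 1.62 ± 0.26, adjusted p = 0.00011, for Patellar minus Flexor and 1.49 ± 0.26, adjusted p = 0.00048, for Supraspinatus minus Flexor.

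Kcnk3 (chr5:30588170-30625271), which closes in acid, was at 5.29, 2.23, 5.41 and 3.71 CPM in Achilles, 1.83, 0.76, 1.44 and 1.21 in Flexor, 5.38, 9.62, 11.3 and 6.11 in Patellar and 0.357, 0.668, 0.586 and 0.956 in Supraspinatus. Summed levels of 12 adipocyte markers stood in the same order of medians, at 19153 CPM in Patellar, 12405 in Achilles, 3215 in Flexor and 1175 in Supraspinatus. Of these markers 11 were lower in Flexor than in Achilles and 12 lower in Supraspinatus than in Achilles and in Patellar. Between Patellar and Achilles only 2 were higher and 1 lower in Patellar, and the sums overlapped (11596 to 27409 and 10518 to 16867 CPM). Their part in the Kcnk3 result was not tested. For Kcnk3 itself Achilles and Patellar lay above Flexor and Supraspinatus, with -1.67 ± 0.37, adjusted p = 0.0057, for Flexor minus Achilles, -2.7 ± 0.39, adjusted p = 8.1e-05, for Supraspinatus minus Achilles and -3.65 ± 0.40, adjusted p = 2e-06, for Supraspinatus minus Patellar. Kcnk1 (chr8:125995170-126030685), a weakly conducting member, was at 9.35, 13.2, 20.8 and 17.3 CPM in Achilles, 10.3, 9.98, 4.48 and 9.61 in Flexor, 12.8, 10.7, 11.9 and 11.8 in Patellar and 1.16, 0.563, 0.611 and 1.84 in Supraspinatus. The Supraspinatus libraries were the 4 lowest, with -3.86 ± 0.39, adjusted p = 4.1e-06, against Achilles, -3.03 ± 0.38, adjusted p = 1.7e-05, against Flexor and -3.49 ± 0.38, adjusted p = 1.9e-06, against Patellar. Kcnk5 and Kcnk13 had tendon means of 4.63, 5.58, 1.11 and 1.70 and 2.82, 3.66, 2.73 and 3.83 CPM.

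Calcium- or sodium-activated potassium channels held 9 described members, of which 5 were lower and 1 higher in Patellar than in Achilles. These were 55.6% and 11.1%, beside 25.3% and 20.6% of genes at 1 CPM or more. Kcnma1 (chr14:23289431-24014491), the large-conductance pore opened by voltage and calcium, was at 73.9, 78.5, 85.9 and 82.1 CPM in Achilles, 33.6, 27.4, 25 and 24.4 in Flexor, 111, 81.7, 80.0 and 164 in Patellar and 67.4, 47.9, 49.2 and 78.4 in Supraspinatus. The Flexor libraries were the 4 lowest, and Patellar lay above Supraspinatus, with -1.54 ± 0.22, adjusted p = 0.00022, for Flexor minus Achilles, 1.98 ± 0.22, adjusted p = 2.9e-06, for Patellar minus Flexor and -0.85 ± 0.21, adjusted p = 0.0033, for Supraspinatus minus Patellar. Kcnmb1, its smooth muscle beta subunit, had a different order, with tendon means of 8.78, 8.17, 0.861 and 0.229 CPM. It was lower in Patellar and in Supraspinatus than in Achilles and Flexor, and the smooth muscle marker sums above were also lowest in Supraspinatus. Kcnmb2 (chr3:31902507-32200180), another beta subunit, was at 0.92, 0.566, 1.11 and 1.41 CPM in Achilles, 0.425, 0.020, 0.187 and 0.167 in Flexor, 0.207, 0.013, 0 and 0.0807 in Patellar and 0.141, 0.144, 0.11 and 0.0342 in Supraspinatus. The Achilles libraries lay above the rest, with -3.21 ± 0.78, adjusted p = 0.0049, for Supraspinatus minus Achilles.

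Kcnn4 (chr7:24370263-24386690), the intermediate-conductance pore known from blood cells and fibroblasts, was at 17, 20.3, 10.1 and 10.9 CPM in Achilles, 15.6, 18.3, 15.8 and 21.7 in Flexor, 62.8, 39, 20.5 and 47.4 in Patellar and 33.7, 39.4, 46.6 and 43.2 in Supraspinatus. Patellar and Supraspinatus were high and overlapped, Achilles and Flexor were low, and Patellar 3 fell just into the Flexor range. The differences were 1.54 ± 0.28, adjusted p = 0.00053, for Patellar minus Achilles and 1.48 ± 0.28, adjusted p = 0.00084, for Supraspinatus minus Achilles. Kcnn1 (chr8:70842049-70863258), a small-conductance pore, was at 10.01, 9.46, 18 and 10.9 CPM in Achilles, 11.5, 8.17, 8.16 and 8.89 in Flexor, 4.36, 2.89, 0.0694 and 5.44 in Patellar and 21.4, 20.3, 21.5 and 19.4 in Supraspinatus. Supraspinatus was highest and Patellar lowest, with -1.91 ± 0.54, adjusted p = 0.011, for Patellar minus Achilles and 2.68 ± 0.56, adjusted p = 0.00079, for Supraspinatus minus Patellar.

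Kcnn3 (chr3:89520164-89675132), of the same group, was at 7.36, 5.45, 9.96 and 5.24 CPM in Achilles, 13.8, 10.8, 12.7 and 14 in Flexor, 2.02, 1.58, 6.21 and 0.296 in Patellar and 10.6, 4.31, 6.9 and 10.2 in Supraspinatus. Flexor was highest and lay above all other libraries, with -2.37 ± 0.56, adjusted p = 0.0023, for Patellar minus Flexor. Kcnt1 (chr2:25863734-25918273), a sodium-activated pore, was at 1.34, 1.23, 1.44 and 1.3 CPM in Achilles, 0.309, 0.80, 0.919 and 0.22 in Flexor, 0.299, 1.22, 4.55 and 0.377 in Patellar and 0.0649, 0.0917, 0.0122 and 0.0797 in Supraspinatus. Supraspinatus lay below every other library, and Patellar 3 stood far above the other Patellar libraries. The differences were -4.39 ± 0.84, adjusted p = 0.00088, against Achilles and -4.64 ± 0.85, adjusted p = 0.00027, against Patellar. Kcnt2, its relative, and Kcnn2 had tendon means of 8.73, 5.66, 2.96 and 4.41 and 1.17, 2.67, 1.26 and 5.32 CPM.

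**Figure D4:**
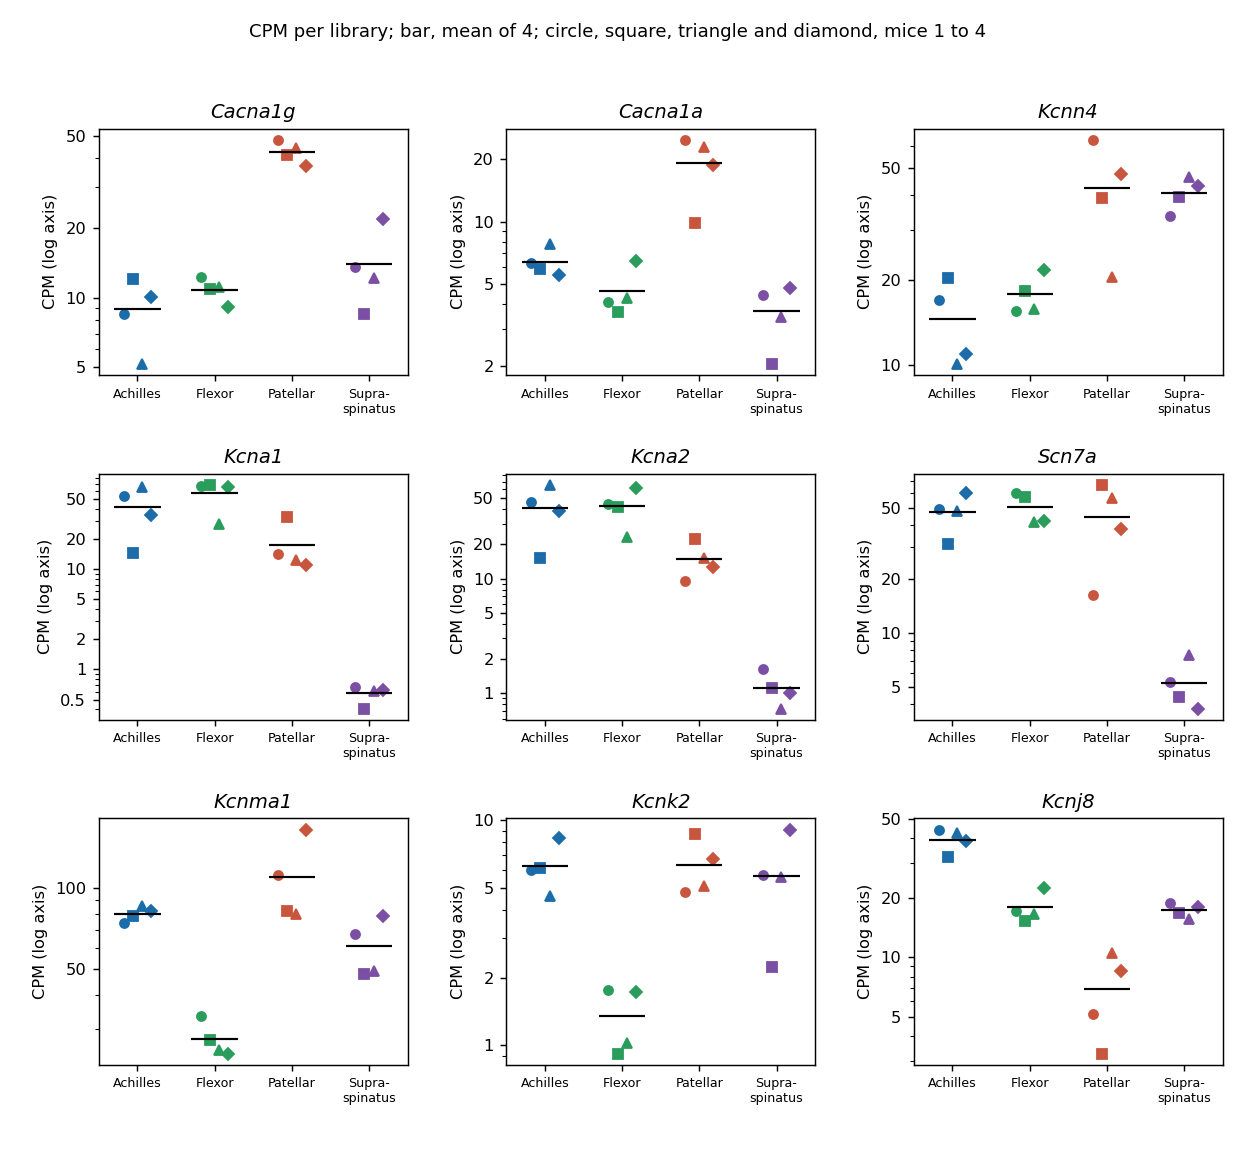
CPM per library on log axes for 9 genes whose order of tendons differs from that of the muscle genes, with 4 libraries per tendon and a bar at their mean. Patellar lies above the rest for Cacna1g and Cacna1a, Supraspinatus below for Kcna1, Kcna2 and Scn7a, Flexor below for Kcnma1 and Kcnk2, and Achilles above for Kcnj8.

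Levels can be compared between genes only per length, as RPKM, the count divided by exon length and library size. Cacng1 led in Achilles, Flexor and Supraspinatus, with 80.3 ± 33.6, 119 ± 16.9 and 304 ± 35.5 RPKM (mean ± SD, n = 4). In Achilles and Flexor Cacna1s and Scn4b came next, and in Supraspinatus Cacna1s was at 108 ± 14.2. Their means lay within the spread of their neighbours in Achilles, where Cacna1s was at 50.8 ± 19.4 and Scn4b at 45.5 ± 19. Patellar had another order, with Kcnn4 (8.29 ± 3.45), Kcnma1 (6.43 ± 2.31) and Scn7a (6.07 ± 3.05) among the highest, which overlapped in their spread.

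Summed over the described members of a class, auxiliary calcium channel subunits were at 138 ± 51.6 RPKM in Achilles and 183 ± 29.8 in Flexor, with 16.5 ± 11.2 in Patellar and 464 ± 43.4 in Supraspinatus. Inward rectifiers summed to 32.9 ± 6.7, 33.2 ± 5.69, 5.02 ± 1.99 and 58.6 ± 3.88. In both classes Patellar was lowest and Supraspinatus highest with no overlap. Channels with 2 pore domains differed, at 12.8 ± 2.01, 8.1 ± 1.4, 12.4 ± 2.36 and 5.85 ± 1.21, lowest in Supraspinatus by mean and alike in Achilles and Patellar within their spread. Calcium- or sodium-activated channels summed to 14.9 ± 1.73, 11.6 ± 0.886, 16.7 ± 5.3 and 18.3 ± 1.51.

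Among 71 partner genes of these channels (chloride channels, calcium release, receptor subunits, sodium pump and others) 64 were tested and 55 differed over the 4 tendons, where all tested genes gave 64.9%. In Patellar 33 were lower and 10 higher than in Achilles (21.1% and 17.4% of all tested genes), and 32 lower and 11 higher than in Flexor (26.2% and 24.2%). In Supraspinatus 28 were higher and 15 lower than in Patellar (26.4% and 26.8%). Jph2, a junctophilin that holds the transverse tubule to the calcium store, had tendon means of 58.1, 42.6, 10.2 and 333 CPM in the usual order, and Lrrc38, a partner of Kcnma1, 4.62, 9.16, 0.387 and 36.9. Ryr3, a calcium release channel, ran the other way, with 2.63, 4.19, 6.8 and 0.307.

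Since muscle marker levels differed between the tendons along with many of these genes, the model was also fitted with the mean log2 CPM of the muscle markers as a covariate. The 79 genes then gave 9 calls in Patellar minus Achilles, 17 in Patellar minus Flexor and 18 in Supraspinatus minus Patellar, in place of 42, 54 and 49. Pairs without Patellar did not fall. Flexor minus Achilles gave 22, Supraspinatus minus Achilles 44 and Supraspinatus minus Flexor 41, in place of 21, 43 and 36. The muscle level of the Patellar libraries did not overlap that of the others, so Patellar and the covariate can be told apart only in part. How many of all tested genes this fit called is not given here, so these falls cannot be read as particular to channel genes. Of the 33 named genes called in Supraspinatus minus Patellar, 13 still passed.

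Cacna1s then differed in Patellar minus Achilles by -1.06, adjusted p = 0.16, Cacng1 by 0.26, adjusted p = 0.59, and Kcnc1 by -0.03, adjusted p = 0.97, on the log2 scale. Scn4a kept -3.8, adjusted p = 0.0015, Scn4b -2.39, adjusted p = 0.019 and Kcnj2 -4.49, adjusted p = 0.0041. Of the genes higher in Patellar, Cacna1g kept 2.15, adjusted p = 0.016 and Cacna1a 2.45, adjusted p = 0.015. The count of genes higher in Patellar than in each of the other 3 tendons went from 5 to 1. In Supraspinatus minus Patellar Kcnc4 kept 5.57, adjusted p = 0.0012, Kcnj12 5.29, adjusted p = 0.021 and Kcna1 -4.07, adjusted p = 0.014.

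With the Schwann cell markers as the covariate instead, a setting chosen after seeing the data, Kcna1 in Patellar minus Flexor went to 0.64, adjusted p = 0.31, and Kcna2 to 0.62, adjusted p = 0.35, on the log2 scale. In Supraspinatus minus Patellar Kcna1 kept -3.52, adjusted p = 9.4e-07, Kcna2 -2.58, adjusted p = 7.9e-06, Scn7a -2.75, adjusted p = 0.00017 and Kcnk1 -3.07, adjusted p = 4.8e-05. Calls over the 79 genes became 17 in Patellar minus Achilles, 24 in Patellar minus Flexor, 9 in Supraspinatus minus Achilles and 3 in Supraspinatus minus Flexor. They changed little in Flexor minus Achilles, with 19 in place of 21, and in Supraspinatus minus Patellar, with 46 in place of 49. Schwann sums were 898 CPM or more in every Achilles and Flexor library and 808 or less in every Patellar and Supraspinatus library. In contrasts of Patellar or Supraspinatus with Achilles or Flexor, tendon and covariate can thus be told apart only in part. Shares of all tested genes called in this fit are not given here, so the fall cannot be read as particular to channel genes. With this covariate Scn7a in Supraspinatus minus Achilles went to -2.29, adjusted p = 0.14.

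**Figure D5:**
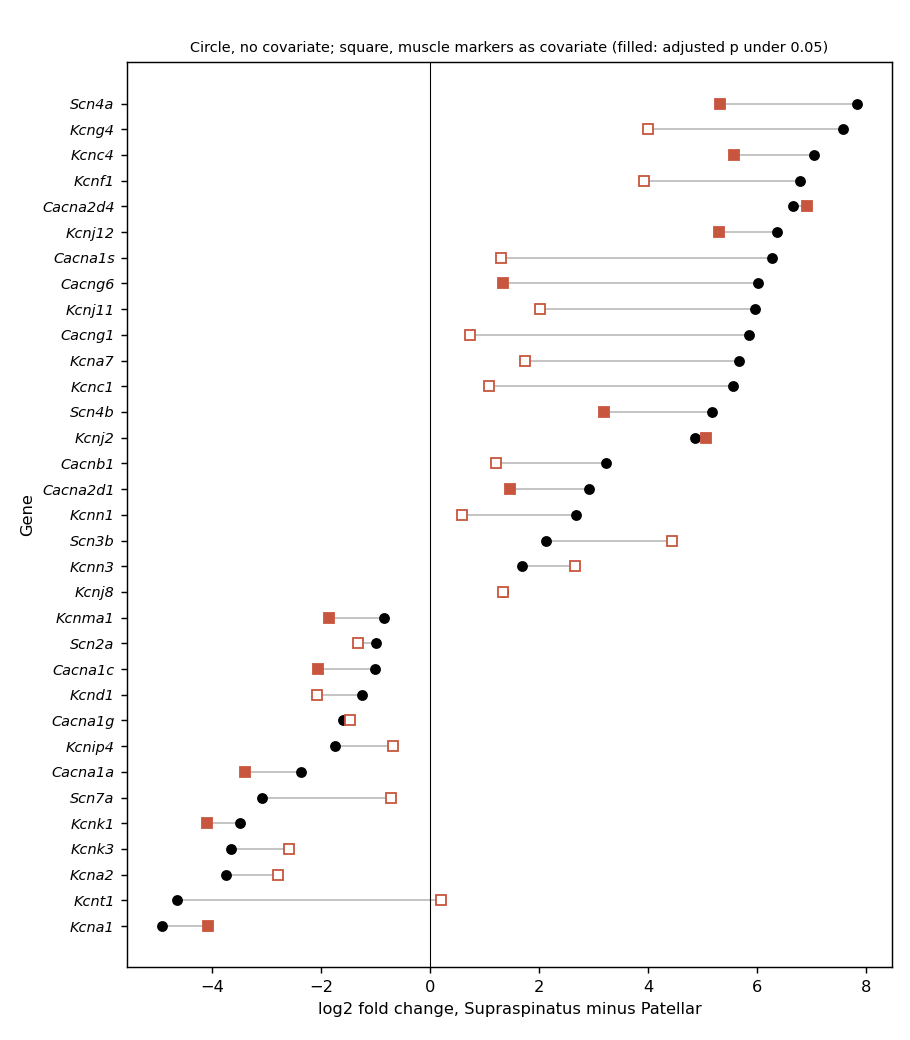
Log2 fold change in Supraspinatus minus Patellar for the 33 named genes called in that contrast, without a covariate (circles) and with muscle markers as the covariate (squares, filled where the adjusted p is under 0.05). In all, 13 squares are filled, among them Scn4a, Kcnc4, Kcnj12, Cacna1a and Kcna1, whereas Cacna1s, Cacng1 and Kcnc1 move to between 0.73 and 1.29.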

How the data were processed

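Total RNA of 16 tendon libraries was sequenced as Illumina libraries, per the labels' protocols. The authors deposited whole-number read counts per gene, with no normalization, for 41204 genes. HISAT2, FastQC and edgeR were used with build mm10, per the submitters' processing notes. Annotation, tool versions, and the counter with its strand setting were not given in the sources used here, so overlapping, antisense and near-identical genes are uncertain. Libraries were grouped by the tendon and mouse number in their labels. p-values set a difference of tendon means against the spread between libraries of a tendon. For each gene that spread is estimated over all 16 libraries, so the Patellar libraries enter every contrast.

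Counts were filtered with filterByExpr by tendon (23754 genes left), scaled with TMM and fitted in edgeR 4.0.16 (R 4.3.3) as a robust quasi-likelihood model over all 16 libraries with 1 mean per tendon. The 6 pairs and the test over 4 tendons were 2-sided, with Benjamini-Hochberg adjustment over all tested genes and a threshold of 0.05. CPM and RPKM (exon lengths of GENCODE M21, GRCm38, in which 131 of 131 member IDs were found) were computed from these counts. The tool was tested on simulated data. The precision of a low level is limited by depth, at least 34559686 counts a library.

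Genes named with every library's value are, in each class, the up to 4 with the highest mean level, plus for each tendon up to 4 in each direction that passed against all 3 other tendons, by the smallest absolute log2 fold change. Members, marker and partner lists, and this rule were chosen with earlier results of these data known. Mouse numbers were not taken to pair the libraries, since the labels do not say that a number marks the same animal across tendons. The number of animals is thus not known here. Deviations of the 24 same-numbered pairs of libraries correlated with a median r of 0.026, and 72 pairs of different number with -0.0255. These correlations cannot exclude a shared animal, since libraries of the same animal need not deviate together. Other settings were median-ratio (RLE) size factors, no filter, 5 CPM, DESeq2 1.42.0, limma 3.58.1 with voom, a replicate block, muscle markers as a covariate, 8 libraries alone, a log2 difference of at least 1, without the Patellar libraries, without rRNA-like genes and without each library. Schwann markers as a covariate were added after seeing the data. The authors' own table of comparisons was not used here. Some members are counted but not reported here by name. Figures were drawn with matplotlib 3.10.9.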

Additional observations from a re-analysis of the deposited data

Results flagged for a closer look

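In 19 of 176 groups of 4 libraries (44 named genes in 4 tendons), 1 library stood apart from the other 3, its gap to the nearest passing Dixon's 95% critical value as a share of the range, which chance does in about 1 in 20 groups. Achilles 3, which had the highest muscle marker sum of its tendon, was highest for 6 genes. It held Kcnc1 at 27 CPM, Kcnn1 at 18, Cacng1 at 163, Cacna2d1 at 124, Cacng6 at 101 and Cacnb1 at 91.1. The other Achilles libraries reached at most 18.1, 10.9, 84, 92, 53.7 and 58.2 CPM in that order. The part of muscle RNA in these values was not tested.

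In Patellar, replicate 1 was highest for Cacng1 (20.5 CPM against at most 3.71) and held the highest muscle sum of the tendon. Patellar replicate 2 was highest for Kcna1 (32.8 CPM against at most 14) and held the only Kcnf1 count (0.013 CPM). In Flexor, replicate 3 was lowest for Kcna1 (28.1 CPM against at least 65) and for Kcnk1 (4.48 against at least 9.61). Flexor replicate 1 was highest for Cacna2d1 (119.7 CPM), and Flexor replicate 4 for Kcnd1 (2.66).

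In Supraspinatus, replicate 2 was highest for Kcns3 (8.84 CPM against at most 3.2) and lowest for Scn4a (206 against at least 256) and Cacng6 (163 against at least 209.9). Supraspinatus replicate 4 was highest for Kcnip4 (3.03 CPM against at most 1.0) and Kcnk6 (12.7 against at most 8.86), and replicate 1 for Kcnj2 (88 against at most 71.6).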

How the results depend on the processing

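Depth limits the low members most in Patellar, where 1 count weighs most. Counts of calls in both directions together stayed within 1.5 times under RLE size factors, DESeq2, limma with voom, no filter, a log2 difference of at least 1, without the rRNA-like genes and at 5 CPM, where 49 genes were left. By direction Flexor minus Achilles higher moved further with limma, from 7 to 11. Counts at 5 CPM are of 49 genes and not of 79, so they are not like for like. Among members at 5 CPM Flexor minus Achilles higher was 4 of 49, beside 7 of 79, and Supraspinatus minus Flexor lower 9 of 49, beside 17 of 79. Patellar minus Achilles called 34 of 49, beside 42 of 79. Flexor minus Achilles rose from 21 to 36 with its 8 libraries alone and to 34 without the Patellar libraries. In the same settings Supraspinatus minus Flexor rose from 36 to 54 and 54, and Supraspinatus minus Achilles from 43 to 54 and 55. With 8 libraries alone Patellar minus Achilles fell from 42 to 28, Patellar minus Flexor from 54 to 47 and Supraspinatus minus Patellar from 49 to 43. With muscle markers as the covariate Patellar minus Achilles gave 9, Patellar minus Flexor 17 and Supraspinatus minus Patellar 18. The pairs without Patellar gave 22 in Flexor minus Achilles, 44 in Supraspinatus minus Achilles and 41 in Supraspinatus minus Flexor. With Schwann markers, chosen after seeing the data, Patellar minus Achilles gave 17, Supraspinatus minus Achilles 9, Patellar minus Flexor 24 and Supraspinatus minus Flexor 3. Flexor minus Achilles gave 19 and Supraspinatus minus Patellar 46 in that fit. Covariate and tendon can be told apart only in part in contrasts with Patellar for muscle markers. For Schwann markers this holds for Patellar or Supraspinatus against Achilles or Flexor. Shares of all tested genes called in the covariate fits are not given here. Genes higher in Supraspinatus than in each other tendon went from 11 to 8 with muscle and 2 with Schwann markers, and genes lower in Patellar from 23 to 4 and 11. Genes higher in Patellar went from 5 to 1 with either covariate, and genes lower in Supraspinatus from 11 to 5 with muscle and 1 with Schwann markers. The cause was not tested.

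Leaving out 1 library at a time gave 63 to 69 genes over the 4 tendons, 16 to 24 in Flexor minus Achilles, 34 to 44 in Patellar minus Achilles and 35 to 49 in Supraspinatus minus Achilles. It gave 48 to 58 in Patellar minus Flexor, 31 to 45 in Supraspinatus minus Flexor and 47 to 52 in Supraspinatus minus Patellar. Of 173 calls of genes taken by the naming rule, 28 were lost without at least 1 library, and 145 were kept without any.

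With the mouse number as a replicate block the counts were 66 over the 4 tendons, then 18, 39, 43, 56, 37 and 48 in the order Flexor, Patellar and Supraspinatus minus Achilles, Patellar and Supraspinatus minus Flexor and Supraspinatus minus Patellar. Of the 173 calls 166 held. Of 24 same-numbered pairs of libraries 5 had r above 0.1, against 15 of 72 pairs of different number. Of those 5, 3 were Flexor with Supraspinatus (0.28, 0.325 and 0.431), and the remaining pair of these tendons had -0.0489.

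Signs turned only under a covariate, with no adjusted p under 0.05 by edgeR. With muscle markers the log2 difference in Patellar minus Achilles was 0.08 for Kcna7, -0.26 for Kcnk6, 0.43 for Kcnmb2 and 0.26 for Cacng1. In Patellar minus Flexor it was 1.48 for Kcna7, -1.03 for Kcns3, 0.37 for Kcnn1 and -0.65 for Scn3a, and in Supraspinatus minus Patellar 0.20 for Kcnt1. With Schwann markers Kcna1 was 0.91 and 0.64, and Kcna2 0.49 and 0.62, in Patellar minus Achilles and minus Flexor. Of 188 tendon means of genes taken by that rule, 188 stayed within 1 SD under RLE factors and 167 without rRNA-like genes.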

Other observations

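Members below 1 CPM in every tendon mean included 14 that differed over the 4 tendons by edgeR's quasi-likelihood test with Benjamini-Hochberg adjustment. They were 14 of 28 tested, beside 64.9% of all tested genes, and those named here were chosen after their values were seen. Kcng2, a modifier subunit, had tendon means of 0.421, 0.0788, 0.67 and 0.0984 CPM in Achilles, Flexor, Patellar and Supraspinatus, higher in the hindlimb tendons by mean. Kcnd2, an A-type pore, had 0.357, 0.0492, 0.0163 and 0.032, and Kcnj3, a G protein-coupled inward rectifier, 0.563, 0.208, 0.00998 and 0.0879, each highest in Achilles. Cacna1i, a T-type pore, had 0.015, 0.0819, 0 and 0.385 and Kcnu1, known from sperm, 0.281, 0.389, 0.0517 and 0.675, each highest in Supraspinatus. Cacna1f, the L-type pore of the retina, had 0.144, 0.0628, 0.523 and 0.118, highest in Patellar by mean. Kcnh8, which had no count in the Supraspinatus libraries, had 0.513, 0.457, 0.268 and 0.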
